A study of Drosophila melanogaster with 36 samples.

Results

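The mRNAs described here encode proteins of the mitochondrial ribosome. They were taken as every gene whose FlyBase symbol begins with mRpL (named for the large subunit) or mRpS (named for the small subunit). The prefix was not checked against the position of each protein in the ribosome. The symbols gave 73 genes, 47 mRpL and 26 mRpS, of which 71 (46 and 25) were listed at every collection window among 10226 genes listed in all. mRpL53 and mRpS5 are not analysed here. All 71 passed the filters on low values in every test.

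RNA was sequenced from sucrose gradient pools of Drosophila melanogaster embryos, kept at 25 °C and collected 0-1h, 1-2h or 2-3h after egg laying. Embryos came from w1118, which the labels name as the pre-injected control and as wild type, or from orb2-delta-zz, which lacks the zinc-binding ZZ domain of the RNA-binding protein ORB2, and no other allele or agent separates the groups in the labels. All lysates contained cycloheximide and were run on 15 to 45% sucrose, and RNA of pool 1 and of pool 3 was sequenced after rRNA depletion. Neither the position of these pools in the gradient nor the origin of the replicates is given in the labels. Each of the 12 groups of genotype, window and pool had 3 replicates, which gave 36 libraries, and p-values measure only the spread between these replicates.

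The mitochondrial ribosome translates the few proteins encoded by the mitochondrial genome, all of them parts of oxidative phosphorylation or ATP synthase. Its own proteins are encoded in the nucleus, translated on cytosolic ribosomes and imported, and they fall into counterparts of bacterial ribosomal proteins and proteins found only in mitochondrial ribosomes. The early fly embryo runs on mitochondria and mRNAs supplied by the mother, and in the hours sampled many maternal mRNAs are cleared while zygotic transcription begins. On a polysome gradient, mRNAs carrying more ribosomes sediment further.

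The libraries summed to between 2.16e+07 and 4.73e+07 normalized counts, and the tables give no read depth. Maternal markers (11 listed genes) and first zygotic transcripts (23 or 24 listed genes) were listed in every window. Each window lists only genes above 0 in all 12 of its libraries, so their presence does not test the embryo label. Egg-shell markers are not analysed here. Of a longer list of adult markers only 2, Yp1 and Yp3, were listed in any window, and they summed to at most 0.998 TPM. Adult RNA present in only some libraries would not be listed, so this sum cannot show its absence. Summed TPM of late-embryo markers stood apart in 5 replicates: in pool 3 it was 659 for orb2-delta-zz replicate 1 at 0-1h, where the others had 2.77 to 30.8. At 1-2h it was 760 (wild-type replicate 2) and 347 (replicate 3 of orb2-delta-zz) against 11.6 to 98.7. At 2-3h replicate 2 had 1521 in wild type against 1438 in orb2-delta-zz, against 97.8 to 540.2. Results that rest on these replicates are given with and without them. Of the 71 genes, 41 share exon bases with a gene on the opposite strand and 2 with one on the same strand. The kit keeps strand, but the sources used here do not say whether it was used in counting, so for those genes reads of the partner cannot be told apart.

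In TPM, a share of each library corrected for transcript length, the 71 mRNAs together made up between 0.120% and 0.648% of a library. mRpS7, a small-subunit protein with a bacterial counterpart, had the highest mean level over the 36 libraries, 193 TPM. mRpL12, of the stalk that recruits translation factors, followed at 185 TPM, and mRpL42, a protein found only in mitochondrial ribosomes, at 141 TPM. The lowest means were 15.1 TPM for mRpL2, which sits by the peptidyl transferase centre in bacteria, 20.3 TPM for mRpS31 and 20.9 TPM for mRpL43, both found only in mitochondrial ribosomes.

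In pool 1 of wild-type embryos the summed level of the 71 mRNAs was 6469, 5516 and 5464 TPM at 0-1h, 3364, 2797 and 3994 TPM at 1-2h, and 1318, 1308 and 1195 TPM at 2-3h. In pool 3 it was 5360, 4881 and 4920 TPM at 0-1h, 4780, 4783 and 4238 TPM at 1-2h, and 4805, 4790 and 4889 TPM at 2-3h. The 3 windows did not overlap in pool 1, whereas pool 3 stayed within a narrow band. In orb2-delta-zz the group means in pool 1 were 6027 ± 346, 4266 ± 252 and 1770 ± 48.9 TPM (SD, n = 3), and in pool 3 they were 5555 ± 126, 5618 ± 337 and 5942 ± 310 TPM. Every orb2-delta-zz library of pool 3 lay above every wild-type library of its window, and so did every one of pool 1 at 2-3h. TPM is a share of each library, and in whole embryos fewer cells with an mRNA and less of it per cell cannot be told apart.

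**Figure D1:**
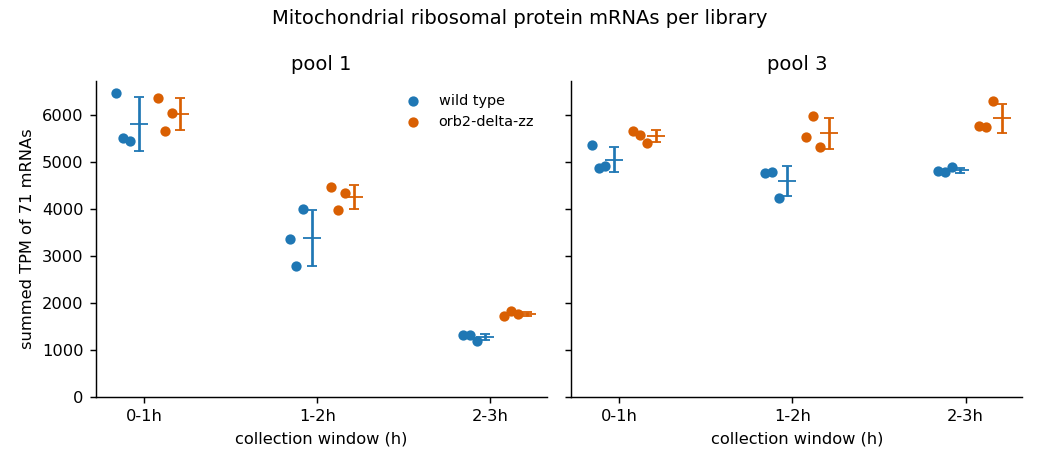
Summed TPM of the 71 mRNAs (y axis) in each library by collection window in hours (x axis), for pool 1 (left) and pool 3 (right). Points are libraries, and the bars beside them are the mean and SD of 3 replicates. In pool 1 wild type fell from a mean of 5816 to 1274 TPM, while pool 3 stayed between 4238 and 6299.9 TPM in all libraries.

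The gradient distribution was described by the log2 ratio of pool 3 to pool 1 in normalized counts, which the authors scaled within each window. This scale sets the ratio relative to the other genes, not in absolute amounts. At 0-1h in wild type, 68 of the 71 mRNAs were lower in pool 3 than in pool 1 and 2 were higher (limma, adjusted p under 0.05), where 40.6% of the 7533 genes tested were lower and 39.8% higher. The members' median ratio was -1.54, against 0.0089 for all genes. On TPM, where the median of all genes moved to 1.19, 27 were lower and 15 higher, and the members' median stayed 1.40 below that of all genes.

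Short mRNAs had lower ratios across the genome, and the mitochondrial ribosomal protein mRNAs are short, with transcripts of 327 to 2078 nt (median 774). Over 7200 coding genes at 0-1h, Spearman's rho of ratio and transcript length was 0.59 in wild type. The 3441 other coding genes between the shortest and the longest member had a median ratio of -0.61, against the members' -1.54. They were not matched to the members' lengths within that range, and the part of length in the members' ratio was not tested. Among the 71 themselves rho was -0.076, so length and ratio did not go together within the group. These correlations run across genes, which share libraries and are not replicates.

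mRpL21, with a bacterial counterpart, and mRpL43 lay furthest towards pool 1 at 0-1h. mRpL21 had 2515, 3863 and 4900 normalized counts in pool 1 of wild type and 503, 485 and 505 in pool 3, a log2 ratio of -2.86 ± 0.24 (SE, adjusted p = 4.87e-07). mRpL43 had a ratio of -2.81 ± 0.20 (adjusted p = 1.48e-07). The only members higher in pool 3 were mRpL51, found only in mitochondrial ribosomes, at 0.63 ± 0.17 (adjusted p = 0.00472), and mRpL28, with a bacterial counterpart, at 0.55 ± 0.11 (adjusted p = 0.000523). mRpL28 had 950, 826 and 898 normalized counts in pool 1 and 1327, 1221 and 1360 in pool 3, and the pools did not overlap. For mRpL51 and mRpL28 an alternative scaling to the upper quartile left smaller ratios that missed the threshold, 0.20 and 0.11, and without wild-type replicate 1 mRpL51 missed it too, at 0.36.

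At 1-2h in wild type 57 of the 71 were lower in pool 3 and 3 were higher (37.0% of all genes lower, 37.0% higher), with a median ratio of -1.29 against 0.070 for all genes. On TPM the split was 11 lower and 42 higher, with the members 1.05 below the median of all genes. mRpL46, found only in mitochondrial ribosomes, was lowest at -2.95 ± 0.22 (adjusted p = 2.21e-08), followed by mRpL21 at -2.75 ± 0.16 (adjusted p = 1.19e-09). mRpL28 at 1.04 ± 0.19 (adjusted p = 0.000138) and mRpL13, with a bacterial counterpart, at 0.63 ± 0.19 (adjusted p = 0.00792) were highest. The call of mRpL13 was lost with upper-quartile scaling, at 0.18 (adjusted p = 0.423), and without replicate 1 of wild type, at 0.56 (adjusted p = 0.0527).

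By 2-3h the group had spread around the median of all genes. In wild type 26 members were lower in pool 3 and 14 higher (27.1% and 29.3% of all genes), and the median ratio was -0.29, against -0.068 for all genes and -0.29 for the 4187 coding genes of the same length range. On TPM 69 were higher and none (0) lower, and with upper-quartile scaling 6 were higher and 41 lower, so the counts depend on the scaling while the median relative to all genes stayed between -0.35 and -0.033. mRpL32, a zinc-binding protein that is clipped by a mitochondrial protease in yeast and mouse, was highest at 2.00 ± 0.29 (adjusted p = 7.21e-05). It had 154, 127 and 76.4 normalized counts in pool 1 and 476, 421 and 481 in pool 3, after 1241, 1438 and 1892 in pool 1 and 459, 459 and 496 in pool 3 at 0-1h. mRpS26, found only in mitochondrial ribosomes, followed at 1.48 ± 0.23 (adjusted p = 0.000108). mRpS28 at -2.42 ± 0.21 (adjusted p = 5.94e-07) and mRpL42 at -2.34 ± 0.22 (adjusted p = 1.49e-06) remained far towards pool 1 on this scale, although on TPM their ratios were 0.032 and 0.12, above 0 but far below the median of all genes on that scale, 2.14.

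In orb2-delta-zz, 67 members were lower in pool 3 and 2 higher at 0-1h (39.9% and 40.6% of all genes), 58 lower and 3 higher at 1-2h (37.6% and 36.9%), and 38 lower and 10 higher at 2-3h (30.1% and 29.9%). Their median ratios were -1.46, -1.46 and -0.60. On TPM the splits were 22 lower and 16 higher, 14 lower and 36 higher, and 2 lower and 67 higher. No share of all genes is given for these splits, so they do not set the members apart from other genes. Over all fits run, the members' median relative to all genes was -1.58 to -1.32, -1.65 to -1.16 and -0.71 to -0.29 in the 3 windows.

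The shift with time was tested on TPM, the deposited unit that can be set across windows, over 7294 genes, in a test added after seeing the data. From 0-1h to 2-3h the ratio rose in 71 of 71 members in wild type (56.0% of all genes, with 9.02% falling) and in 69 in orb2-delta-zz (50.6%, with 8.69% falling), and none (0) fell in either. The median rise was 2.21 in wild type, 1.32 above that of all genes, and 1.99 in orb2-delta-zz, 1.25 above. With the median of all genes set equal in each library, 51 rose and 2 fell in wild type and 47 rose and 5 fell in orb2-delta-zz. No share of all genes is given for that scaling. Over all fits run, the members' median rise relative to all genes was 1.15 to 1.53 in wild type and 1.08 to 1.35 in orb2-delta-zz. None of these fits had the gradient as a replicate block, although pools of the same replicate deviated together. Median rises were 2.27 for the 44 members with bacterial counterparts and 1.81 for the 27 found only in mitochondrial ribosomes in wild type.

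**Figure D2:**
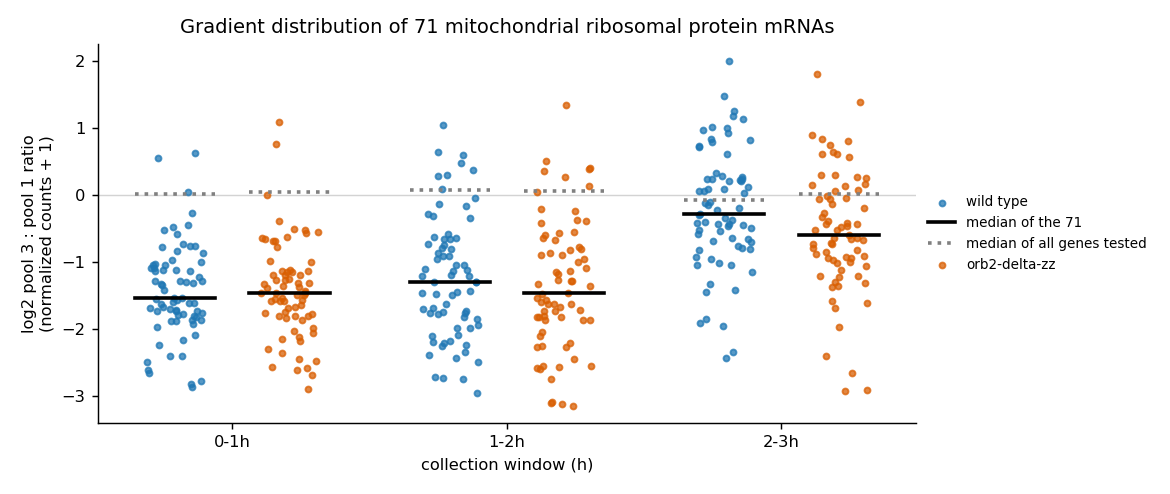
The log2 ratio of pool 3 to pool 1 (y axis, normalized counts plus 1) for each of the 71 mRNAs by window in hours (x axis) and genotype (colour). Each point is 1 mRNA, solid bars are medians of the 71 and dotted bars medians of all genes tested. In wild type the median of the 71 went from -1.54 at 0-1h to -0.29 at 2-3h, while that of all genes stayed near 0.

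Other groups had other courses. In wild type the ratio of cytosolic ribosomal protein mRNAs had a median of -3.13, -4.05 and -4.58 in the 3 windows, with 84 of 86, 84 of 86 and 85 of 88 lower in pool 3. For nuclear-encoded oxidative phosphorylation genes the medians were -0.40, -0.67 and -0.26, with 28 of 65, 41 of 66 and 29 of 69 lower. For 27 other mitochondrial factors they were -0.51, -1.05 and -0.22 (18, 16 and 7 lower). That list holds translation and RNA factors, proteins that copy and transcribe mitochondrial DNA (among them PolG1, mtDNA-helicase and mtSSB), the protease Lon and the insertase OXA1L. For 15 mitochondrial aminoacyl-tRNA synthetases the medians were -0.32, -0.55 and -0.42 (8, 8 and 3 lower). bonsai and tko, small-subunit proteins of the mitochondrial ribosome that the symbol rule leaves out, were both lower at 0-1h, bonsai at -1.82, and at 2-3h tko was higher at 1.34. These differences between groups were not tested.

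Changes of each pool with time were tested on the same TPM scale. In wild-type pool 1, 70 of the 71 fell from 0-1h to 2-3h, and none (0) rose, where 69.8% of all genes fell and 15.3% rose. Their median change was -2.31, 0.95 below that of all genes, and with the median of all genes set equal 43 fell and 7 rose. No share of all genes is given for that scaling. Over all fits run, the members' median relative to all genes was -1.16 to -0.85. mRpL32 fell by 4.05 ± 0.18 (adjusted p = 2.71e-18), from 73.4, 54.1 and 60.7 TPM to 3.28, 3.43 and 1.93 TPM. mRpL17, with a bacterial counterpart, fell by 3.98 ± 0.13 (adjusted p = 5.70e-21). These were the largest falls among the 71, and a log2 change on TPM plus 1 understates the change of low levels.

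In wild-type pool 3, 14 rose and 20 fell (23.3% and 45.4% of all genes), with a median change of -0.073, 0.22 above that of all genes. With the median of all genes set equal 35 rose and 9 fell, and over all fits run the members' median relative to all genes was 0.16 to 0.26. mRpS6, with a bacterial counterpart, rose by 0.73 ± 0.16 (adjusted p = 0.000138) and mRpL27, whose bacterial counterpart lies by the peptidyl transferase centre, by 0.69 ± 0.17 (adjusted p = 0.000958). mRpL38, found only in mitochondrial ribosomes, fell by 1.75 ± 0.21 (adjusted p = 1.23e-08) and mRpL3, also near the peptidyl transferase centre, by 1.62 ± 0.17 (adjusted p = 8.00e-10). In orb2-delta-zz 69 of the 71 fell in pool 1 and none (0) rose (66.1% and 14.1% of all genes), and in pool 3, 23 rose and 24 fell (26.3% and 37.3%). With the medians set equal the counts were 41 falling and 10 rising in pool 1, and 13 falling and 35 rising in pool 3. No share of all genes is given for the counts with medians set equal, in either genotype.

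Over the same time the cytosolic ribosomal protein mRNAs of wild-type pool 1 had a median change of 0.40, with 54 of 86 rising, and 56 of 65 oxidative phosphorylation mRNAs fell, with a median of -1.20. All 27 other mitochondrial factors (median -2.08, with mtSSB lowest at -4.45), all 15 mitochondrial synthetases (median -1.90) and both bonsai and tko fell there.

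The comparison of orb2-delta-zz with wild type asked how the ZZ domain of ORB2 bears on these mRNAs. At 0-1h few differed. In pool 1, 1 member was higher and 1 lower in orb2-delta-zz (5.62% and 4.42% of all genes), and in pool 3, 1 was higher and none (0) lower (4.45% and 3.13%). An unadjusted p under 0.05 was reached by 9 and 7 members. These 2 counts have no share of all genes beside them and are not read as a result. The median difference was 0.16 in pool 1 and 0.15 in pool 3, against 0.018 and 0.031 for all genes. Without replicate 1 of wild type the median in pool 1 was -0.00065, against 0.026 for all genes, so its direction rests on that replicate. Without orb2-delta-zz replicate 1, 5 were higher and 1 lower in pool 1, and 4 were higher in pool 3. Leaving out replicate 1 of wild type gave 2 higher in pool 3.

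mRpS23, a small-subunit protein found only in mitochondrial ribosomes, was the member higher in pool 3 at 0-1h. It had 671, 612 and 575 normalized counts in wild type against 1104, 1115 and 1086 in orb2-delta-zz. The genotypes did not overlap, and the difference was 0.83 ± 0.14 (adjusted p = 0.00281). In pool 1 the same mRNA had 1891, 2180 and 2543 counts in wild type against 1549, 2009 and 2163 in orb2-delta-zz, which overlap. The pool 3 to pool 1 ratio of mRpS23 differed between genotypes by 1.05 ± 0.19 (adjusted p = 0.0431), the only such call among the 71, where 0.518% of all genes were called. With the gradient as a replicate block its adjusted p was 0.188 and no member (0) was called, and the call was also lost on TPM and when any replicate but replicate 1 of wild type was left out (adjusted p of 0.0756 to 0.315).

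mRpS18C, 1 of 3 fly relatives of the bacterial S18 protein, had 481, 539 and 580 normalized counts in pool 1 of wild type at 0-1h and 624, 723 and 794 in orb2-delta-zz, with no overlap. Its difference was 0.42 ± 0.11 (adjusted p = 0.0397). mRpL28 was lower, with 950, 826 and 898 counts in wild type against 686, 604 and 571 in orb2-delta-zz, a difference of -0.52 ± 0.11 (adjusted p = 0.00940), again with no overlap. With the replicate number as a block, as same-numbered pool 1 libraries of this window deviated together, 4 were higher and 1 lower. Leaving out orb2-delta-zz replicate 2 or 3 ended both calls in pool 1, and leaving out any 1 wild-type replicate ended that of mRpS18C.

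**Figure D3:**
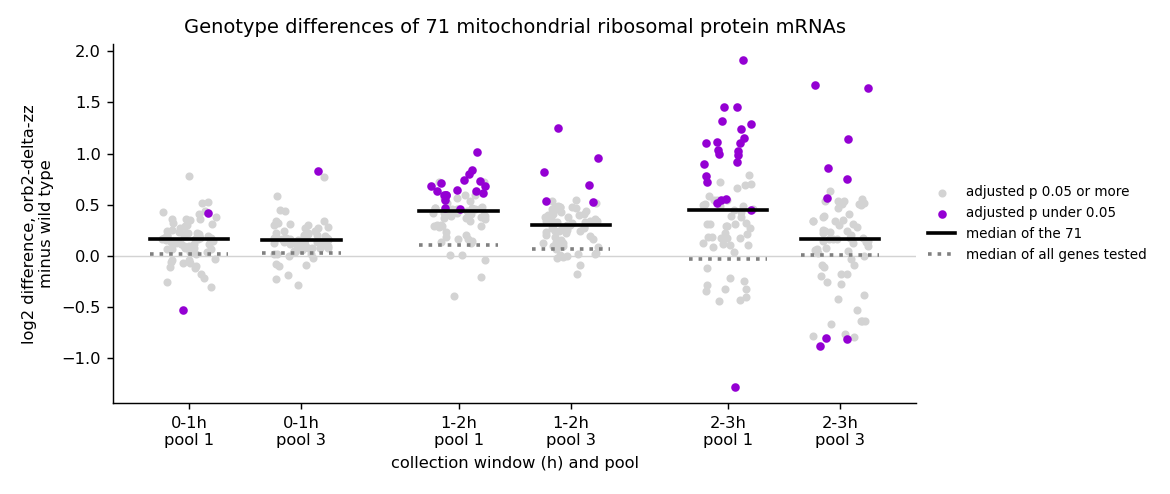
The log2 difference between orb2-delta-zz and wild type (y axis) of each of the 71 mRNAs by window in hours and pool (x axis). Each point is 1 mRNA, coloured where its adjusted p was under 0.05, solid bars are medians of the 71 and dotted bars medians of all genes tested. The members' median lay above that of all genes in each of the 6 comparisons as plotted, although in pool 1 at 0-1h the median relative to all genes was -0.027 without replicate 1 of wild type, and 18 and 22 mRNAs were higher in pool 1 at 1-2h and 2-3h.

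At 1-2h, 18 of the 71 were higher in orb2-delta-zz in pool 1 and none (0) lower (6.63% and 4.8% of all genes), with a median difference of 0.44 against 0.11. The replicates of the genotypes did not overlap for 39 members, all higher, where 20.1% of all genes were higher without overlap. The count depends on single replicates and on the scaling. It was 3 to 14 with 1 replicate left out (3 without replicate 2 or 3 of orb2-delta-zz, 5 and 6 without replicates 1 and 2 of wild type), 4 higher and 1 lower without both late-marker replicates, 11 on TPM, and 9 higher and 1 lower with upper-quartile scaling. mRpL54, found only in mitochondrial ribosomes, was highest at 1.02 ± 0.19 (adjusted p = 0.00379), followed by mRpS18C at 0.84 ± 0.16 (adjusted p = 0.00482) and mRpL27 at 0.80 ± 0.23 (adjusted p = 0.0397).

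mRpL54 had 1805, 1515 and 2265 normalized counts in pool 1 of wild type at 1-2h and 3291, 3357 and 4634 in orb2-delta-zz. In pool 3 it had 589, 478 and 552 counts in wild type against 1392, 1418 and 1067 in orb2-delta-zz. The genotypes were far apart in both pools, and in pool 3 the difference was 1.25 ± 0.19 (adjusted p = 0.000852). At 0-1h its counts were also without overlap in pool 3, at 786, 731 and 635 against 1172, 1188 and 1306, but the difference of 0.77 ± 0.26 missed the threshold (adjusted p = 0.116).

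In pool 3 at 1-2h, 6 were higher and none (0) lower (3.53% and 5.04% of all genes), and the median difference was 0.30 against 0.066. Besides mRpL54 they were mRpL18, whose bacterial counterpart binds 5S rRNA, at 0.96 ± 0.18 (adjusted p = 0.00343), mRpS23 at 0.82 ± 0.18 (adjusted p = 0.00977), and mRpL49, mRpL9 and mRpL12. The last of these had differences of 0.69, 0.53 and 0.52 with adjusted p of 0.0338, 0.0426 and 0.0336. With 1 replicate left out 2 to 4 were called, 4 without replicate 2 of wild type and 3 or fewer without each of the others. mRpL18 had 338, 317 and 357 normalized counts in wild type against 645, 772 and 566 in orb2-delta-zz, which did not overlap. mRpL12, mRpL49, mRpL54 and mRpL9 were called in both pools of this window. In pool 3 the call of mRpL54 held under all 12 alternatives, whereas it was lost in 8 for mRpL9, 7 for mRpL12 and 5 for mRpL49, each also when single replicates were left out. No member (0) was called for a genotype difference in the ratio, where 0.482% of all genes were. An unadjusted p under 0.05 was reached by 5, a count without a share of all genes that is not read as a result.

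At 2-3h, 22 of the 71 were higher in orb2-delta-zz in pool 1 and 1 was lower (14.4% and 9.48% of all genes), and the median difference was 0.45 against -0.026. The 22 were 16 of the 44 members with bacterial counterparts and 6 of the 27 found only in mitochondrial ribosomes. With the replicate number as a block, as same-numbered pool 1 libraries deviated together here too, 34 were higher and 1 lower. On TPM the counts were 39 and 1, with 1 replicate left out 16 to 19 were higher and 1 lower, and without replicate 2 of both genotypes 18 were higher and 1 lower. The shares of all genes above are those of the main fit only. Over all fits run, the members' median relative to all genes was 0.40 to 0.56.

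mRpL54 was again highest, with 584, 499 and 523 normalized counts in pool 1 of wild type at 2-3h against 1971, 2169 and 1903 in orb2-delta-zz. The difference was 1.91 ± 0.17 (adjusted p = 5.48e-05). mRpL10, of the base of the ribosomal stalk, had 683, 1101 and 676 counts against 2241, 1988 and 2343, a difference of 1.45 ± 0.21 (adjusted p = 0.00101). mRpL34, a small protein with a bacterial counterpart, differed by 1.45 ± 0.30 (adjusted p = 0.00618), and CG8414 on its opposite strand was also called higher, by 0.66 (adjusted p = 0.0499). In mRpL54, mRpL10 and mRpL34 the lowest orb2-delta-zz library lay well above the highest wild-type library. Among the genes called higher in pool 1 at both 1-2h and 2-3h were mRpL12, mRpL13, mRpL15, mRpL17, mRpL23, mRpL27, mRpL54, mRpS18A and mRpS31, with differences from 0.90 (mRpL15) to 1.91 (mRpL54) at 2-3h, and mRpS18C was called at 0-1h and 1-2h. All of these calls at 2-3h held under the 12 alternatives run, but at 1-2h only that of mRpL54 among the 9 did. The 1-2h call was lost in 10 of the 12 for mRpL17, 9 for mRpL13, 7 for mRpL27 and mRpS18A, 6 for mRpL23 and mRpS31, 5 for mRpL12 and 4 for mRpL15, leaving out single replicates among them. mRpS18C held at 1-2h under all 12 and lost its 0-1h call in 7 of 11.

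mRpL4, whose bacterial counterpart lines the exit tunnel, went the other way. It had 2420, 1696 and 2095 normalized counts in pool 1 of wild type at 2-3h and 908, 821 and 804 in orb2-delta-zz, a difference of -1.28 ± 0.17 (adjusted p = 0.000645). In pool 3 it had 818, 765 and 879 counts in wild type against 1064, 903 and 1159 in orb2-delta-zz, without overlap in the opposite direction, and that difference of 0.34 ± 0.17 did not pass the test (adjusted p = 0.185). Its pool 3 to pool 1 ratio was higher in orb2-delta-zz by 1.62 ± 0.24 (adjusted p = 0.0228), where 0.136% of all genes were called. With the gradient as a replicate block 1 member was higher and 3 were lower in this test. Without replicate 2 of both genotypes none (0) was called, and the call of mRpL4 was lost when any replicate but replicate 2 of wild type was left out (adjusted p of 0.207 to 0.273). CG4278, on the opposite strand of mRpL4, differed in pool 1 by 0.23 (adjusted p = 0.371).

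In pool 3 at 2-3h, 6 were higher and 3 lower (9.71% and 4.97% of all genes), with a median difference of 0.17 against 0.0068. mRpS23 had 143, 191 and 187 normalized counts in wild type against 506, 467 and 700 in orb2-delta-zz, a difference of 1.67 ± 0.23 (adjusted p = 0.000977). mRpL54 had 379, 304 and 399 counts against 1119, 984 and 1260, a difference of 1.64 ± 0.17 (adjusted p = 0.000174). mRpL18 followed at 1.14 ± 0.20 (adjusted p = 0.00410). In each of these the genotypes did not overlap. mRpS23 was called higher in pool 3 in all 3 windows (its 1-2h call was lost in 3 of 12 alternatives), and mRpL18 and mRpL54 at 1-2h and 2-3h.

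mRpS35, a small-subunit protein found only in mitochondrial ribosomes, had 695, 389 and 603 normalized counts in pool 3 of wild type at 2-3h and 390, 281 and 238 in orb2-delta-zz. Its difference was -0.88 ± 0.25 (adjusted p = 0.0344), although the highest orb2-delta-zz library just passed the lowest wild-type one. mRpL37, found only in mitochondrial ribosomes, at -0.81 ± 0.24 (adjusted p = 0.0410) and mRpL22, whose bacterial counterpart lines the exit tunnel, at -0.80 ± 0.25 (adjusted p = 0.0474) were also lower. In the other pool, pool 1, mRpL37 and mRpS35 had been called higher at 1-2h (limma, adjusted p = 0.0194 and 0.0303). Those 1-2h calls were not followed singly through the alternatives, under which the members called there fell to as few as 3. The split of calls in pool 3 was 6 higher and 6 lower with upper-quartile scaling and 29 and 8 on TPM, and 3 to 16 were called with 1 replicate left out (3 without replicate 1 or 3 of wild type or replicate 3 of orb2-delta-zz, 5 without replicate 2 of orb2-delta-zz, and 16 without that of wild type). All 3 lower calls were absent in the counts of 3 and 5. With the replicate number as a block more members were called in both directions, as counted in the section on processing. No share of all genes is given for the counts under alternatives, so they do not set the members apart from other genes. mRpL10, mRpL17, mRpL18, mRpL54 and mRpS23 were higher in both pools of this window.

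**Figure D4:**
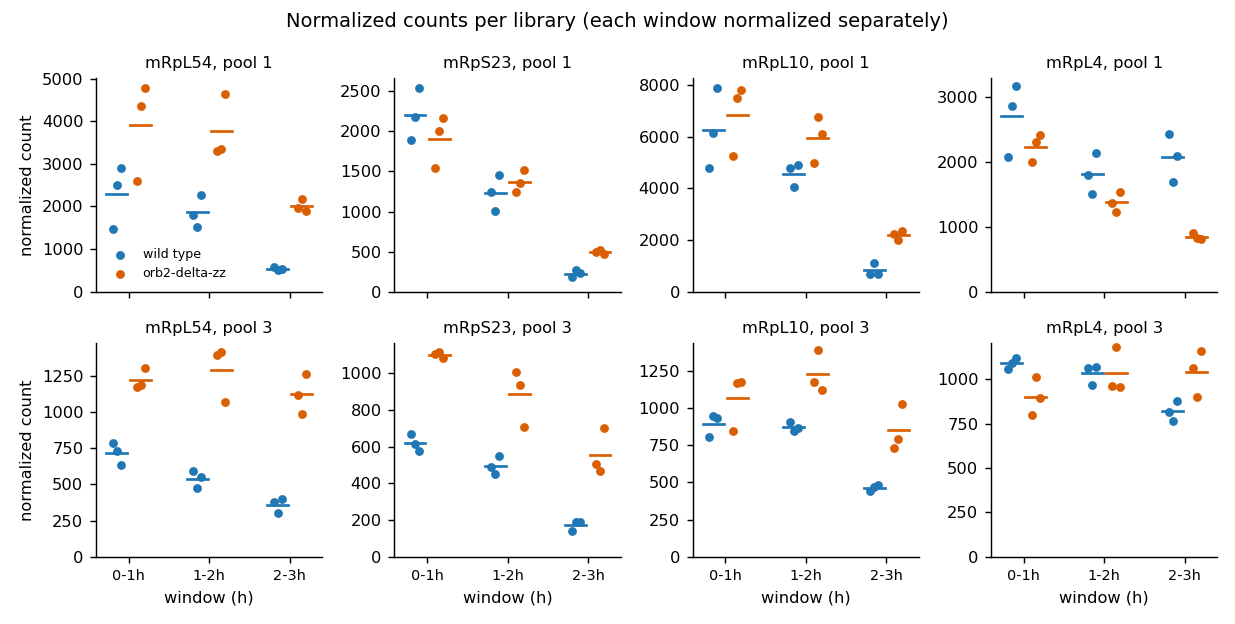
Normalized counts (y axis, from 0) of mRpL54, mRpS23, mRpL10 and mRpL4 in each library by window in hours (x axis), pool 1 above and pool 3 below. Points are libraries, bars are means of 3 replicates, and counts were normalized separately in each window. mRpL54 and mRpS23 in pool 3 lay higher in every orb2-delta-zz library than in any wild-type library of its window, and mRpL4 in pool 1 at 2-3h lay lower.

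Across the 6 comparisons of genotypes 35 of the 71 were called at least once, 32 higher and 5 lower, with mRpL37 and mRpS35 in both counts, and 36 were never called. Of the 7456 genes tested in all 6, 43.4% were called at least once, 30.1% higher and 14.7% lower. Members of the other lists gave these counts for pool 1 at 2-3h: 28 of 69 oxidative phosphorylation genes higher and none (0) lower (median 0.51, ATPsynbeta highest at 1.41), 10 of the 27 other mitochondrial factors higher (median 0.32, scu highest at 1.37), 2 of 15 mitochondrial synthetases higher (median -0.039), and 1 of 88 cytosolic ribosomal protein genes, RpLP2, higher (median 0.026). tko was higher at 1.48. At 1-2h in the same pool 2 of 66 oxidative phosphorylation genes and 1 of 86 cytosolic ribosomal protein genes were higher, and 2 of 27 factors were higher and 1 lower.

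Other embryo markers moved with genotype as well. Summed TPM of the first zygotic transcripts was lower in orb2-delta-zz in every window and pool, for example 1256 to 1734 against 3216 to 3258 in pool 1 at 2-3h. Summed maternal markers in pool 1 at 1-2h were 2460.2 to 3225 TPM in orb2-delta-zz, above the 2105 to 2440.3 TPM of wild type, and in pool 3 they overlapped, at 8108 to 9054 against 6780.2 to 8416. At 2-3h they were 565 to 1112 TPM in orb2-delta-zz against 276 to 460 in wild type in pool 1, and 3294 to 4721 against 1532 to 2160 in pool 3. Summed late-embryo markers, outside the replicates set apart above, were also higher in orb2-delta-zz in pool 3 at 1-2h and 2-3h. The part of all these markers in the differences of the mitochondrial ribosomal protein mRNAs was not tested.

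mRpL12 and mRpS7 lie beside loci with their own genotype difference. mRpL12 (chromosome 3L, 8956791 to 8957584, BDGP6, plus strand) lies 2327 nt from orb2, and its differences in pool 1 were 0.16, 0.55 and 1.11 in the 3 windows, against -0.30, -0.073 and 1.06 for orb2 (adjusted p = 0.0315 at 2-3h). The total of orb2 does not check the deletion of its ZZ domain. mRpS7 (chromosome 2L, 10386662 to 10387652, plus strand) lies 1938 nt from CG5096, which was higher in orb2-delta-zz by 6.61, 5.86 and 2.18 in pool 1 over the 3 windows. mRpS7 itself differed by -0.095, 0.0046 and -0.25, with adjusted p of 0.815, 0.990 and 0.261. mRpL54 (chromosome 2R, 21060789 to 21061587, plus strand) overlaps no other annotated gene. Polr2C, opposite mRpS23 (chromosome 2L, 13834250 to 13835072, minus strand), differed in pool 3 by -0.14, 0.017 and -0.14, with adjusted p of 0.812, 0.984 and 0.672. An overlapping gene was tested for 31 of the 59 genotype calls, and in 1 of them, that of mRpL34, it was called in the same direction.

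The change from 0-1h to 2-3h also differed between genotypes, tested as the difference of the changes. In pool 1 it was higher in orb2-delta-zz for 21 members and lower for 1 (12.3% and 2.28% of all genes), and in pool 3 higher for 6 and lower for 7 (7.5% and 3.14%). In pool 1, mRpL10 changed by -3.61 in wild type against -2.24 in orb2-delta-zz, a difference of 1.37 ± 0.25 (adjusted p = 0.000460). The changes of mRpL54 were -2.73 and -1.54, a difference of 1.19 ± 0.21 (adjusted p = 0.000310). With the median of all genes set equal the counts were 17 and 4 in pool 1, and 5 and 11 in pool 3, given without a share of all genes. Over all fits run, the members' median relative to all genes was 0.079 to 0.34 in pool 1 and -0.044 to 0.051 in pool 3. With 1 replicate left out 13 to 24 were called in pool 1, 13 without replicate 2 of orb2-delta-zz at 0-1h. In pool 3 they were 3 to 17, with 8 or fewer without replicate 2 or 3 of orb2-delta-zz or replicate 2 of wild type at 0-1h, and without replicate 3 of orb2-delta-zz or replicate 1 or 3 of wild type at 2-3h. These tests share libraries with the comparisons of each window above.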

How the data were processed

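Reads went through Salmon 1.9.1, Trim Galore 0.6.5 and DESeq2 1.42.1, named without order in the submitters' processing notes. The deposited normalized counts (a signal that is not whole-numbered) come in 1 table per window, so each window has its own scale. The deposited TPM values correct each library for transcript length. For the authors' genome build, the sources used here give none. Each table lists only genes above 0 in all 12 libraries of its window (7746, 8723 and 10091 genes). Apart from 1 factor per library and 1 per gene, both units held the same values (SD of the log2 ratio at most 0.0068 with both removed). Whole reads were not recovered, so no counting intervals are given.

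For each window limma fitted 4 group means to log2(normalized count + 1), leaving out genes averaging under 10, with limma 3.58.1 (trend, R 4.3.3). Changes with time used log2(TPM + 1) over 36 libraries for genes listed in all windows with a mean TPM of at least 1. Tests were two-sided, with Benjamini-Hochberg adjustment over all genes tested, and genes under 0.05 were called. Tables were prepared with Python 3.11.15 (pandas 2.3.3), and the fits were tested on simulated data. Positions and symbols come from Ensembl 115 (BDGP6), and 71 of 10226 IDs had no symbol.

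The members, gene lists, classes of bacterial counterparts (after the mammalian mitochondrial ribosome) and markers were chosen with earlier results of these data known. Text names the 3 highest and 3 lowest called members of each genotype comparison (all where 6 or fewer), 2 and 2 for the wild-type ratio and time change, the 3 highest and lowest levels, and members called repeatedly. Other genes are named where a count of 5 or fewer or a genomic overlap called for it.

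Pools of the same replicate deviated together in all windows (correlations 0.125 to 0.831), so the gradient block applies to ratios. It was run only as an alternative for the ratios within a window. Unless a block is named, the SE and adjusted p printed for ratios come from main fits without it. For the change of the ratio with time it was not run. Same-numbered replicates of the genotypes deviated together in all 3 pairs only in pool 1 at 0-1h and 2-3h. In pool 3 at 2-3h the correlations were 0.76, 0.74 and -0.0075 for replicates 1, 2 and 3. At 1-2h the libraries of replicate 1 carry different index numbers in the labels of wild type and orb2-delta-zz. Alternatives were other pseudocounts, no filter, upper-quartile scaling, TPM, median scaling of TPM (chosen after seeing the data), blocks, and leaving out replicates. Shares of all genes are those of the main fits, and counts under an alternative have none beside them. Such counts show how a result depends on the processing, not whether the members stand apart from other genes.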

Additional observations from a re-analysis of the deposited data

Results flagged for a closer look

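For 37 results the effect in 1 genotype differed from that in the other, by a test of the difference itself (limma, adjusted p under 0.05, adjusted over all genes). For the pool 3 to pool 1 ratio these were mRpS23 at 0-1h (1.05) and mRpL4 at 2-3h (1.62), where the value is the log2 difference of orb2-delta-zz minus wild type. That of mRpS23 was lost in 7 of 11 alternatives, among them the gradient as a replicate block (adjusted p = 0.188). That of mRpL4 was lost in 6 of 12.

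For the change from 0-1h to 2-3h in pool 1, mRpL4 differed by -0.85. It was the only member there called lower in orb2-delta-zz in the main fit (2.28% of all genes). The difference was positive for the other 21 called (12.3% of all genes). It was below 0.9 for mRpL21 (0.57), mRpL15 (0.62), mRpS29 (0.66), mRpL1 (0.75), mRpS18A (0.80), mRpL13 (0.83), mRpL23 (0.87), mRpS31 (0.88) and mRpL27 (0.89). It lay between 0.9 and 1.1 for mRpL33 (0.95), mRpL28 (0.98), mRpS26 (0.99), mRpL18 (1.01), mRpL12 (1.04), mRpS10 (1.05) and mRpL34 (1.08). The largest were mRpL17 (1.10), mRpL54 (1.19), mRpL30 (1.26), mRpS23 (1.35) and mRpL10 (1.37).

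For the same change in pool 3, 3.14% of all genes were called lower in orb2-delta-zz and 7.5% higher. The difference was negative for mRpL37 (-0.99), mRpL43 (-0.96), mRpS35 (-0.96), mRpL46 (-0.95), mRpL22 (-0.86), mRpL2 (-0.85) and mRpS25 (-0.68). It was positive for mRpL13 (0.66), mRpL17 (0.68), mRpL4 (0.71), mRpL18 (0.89), mRpS23 (0.90) and mRpL54 (0.95). mRpL4 was negative in pool 1 and positive in pool 3, while mRpL13, mRpL17, mRpL18, mRpL54 and mRpS23 were positive in both pools. With the median of all genes set equal, more members were called negative and fewer positive in each pool. The single differences in change were not followed through the alternatives.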

How the results depend on the processing

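Of the named results, 20 of 39 genotype differences, 7 of 12 wild-type ratios and 6 of 6 time changes kept direction and call under every alternative run, among them mRpL54 in both pools and mRpL18 in pool 3 at 1-2h and 2-3h, mRpS23 in pool 3 at 0-1h and 2-3h, and mRpL4 and mRpL10 in pool 1 at 2-3h. On TPM the 2-3h wild-type ratio reversed for mRpL42 (0.12) and mRpS28 (0.032), and for the oxidative phosphorylation list's median relative to all genes (0.030). Without wild-type 0-1h replicate 1 the cytosolic ribosomal proteins' genotype difference in change in pool 1, relative to all genes, reversed to 0.041, and with 1 replicate left out it ranged from -0.332 to 0.041. Counts of members called (either direction) on TPM were 1 and 2 for genotype at 0-1h (pools 1 and 3), 11 at 1-2h (pool 1), and 40 and 37 at 2-3h. They were 0 and 2 for its difference in the ratio at 0-1h and 2-3h, 42 and 69 for the wild-type ratio at 0-1h and 2-3h, and 38 for the orb2-delta-zz ratio at 0-1h. Upper-quartile scaling gave 10 in pool 1 at 1-2h, and 3 for the ratio difference at 2-3h, and shifted the all-gene median genotype difference of pool 1 from 0.11 to -0.038 at 1-2h and from -0.026 to -0.17 at 2-3h. Without the late-marker replicates, a setting chosen after seeing the data, 5 were called in pool 1 at 1-2h and 0 for the ratio difference at 2-3h. The replicate block by number gave 5 and 3 in pools 1 and 3 at 0-1h, and 35 and 28 at 2-3h, where pool 3 had 18 higher and 10 lower. The gradient as replicate block gave 0 and 4 for the ratio difference at 0-1h and 2-3h. Blocks moved no other count of members by more than 1.5 times. Same-numbered replicates of the genotypes correlated above 0.1 in 3, 2 and 5 of 6 pairs in the 3 windows. With 1 replicate left out the counts ranged from 0 to 6 and 1 to 4 for pools 1 and 3 at 0-1h, 3 to 14 and 2 to 4 at 1-2h, 17 to 20 and 3 to 16 at 2-3h, 0 to 1 for the ratio difference at 0-1h and at 2-3h, and 13 to 24 and 3 to 17 for the genotype difference in change in pools 1 and 3. The causes were not tested. The tables hold no read counts, so depth could not be weighed, and 3 replicates a group limit the precision.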
